A study of Rattus norvegicus with 6 samples.

Results

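Plasminogen activators and serpins were followed here through 6 genes, Plat, Plau, Plaur, Serpine2, Serpinf1 and Serpinh1, in rat mesenchymal stromal cells grown from blood and from marrow. They were chosen by name, as every probe set whose platform gene symbol is one of the 6, which gave 9 of the 15923 probe sets on the array. A probe set is a group of short oligonucleotides that together measure 1 transcript, and its signal is given here on a log2 scale. The study used 3 GFP transgenic rats, named S4, S5 and S6. Each rat gave 1 culture from peripheral blood and 1 from bone marrow, and each culture was measured at passage 2 on its own Affymetrix RAE230A array. All 6 cultures carried the transgene and had the same isolation on a density gradient, the same medium and the same passage. The labels name neither the strain and age of the rats nor the promoter of the transgene.

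Tissue-type plasminogen activator, encoded by Plat, and urokinase, encoded by Plau, are serine proteases that cut plasminogen to plasmin, which dissolves fibrin and degrades pericellular matrix. Urokinase is held at the cell surface by its receptor, encoded by Plaur. Serpins are a family of inhibitors that trap serine proteases by a change of shape, and the complexes are cleared by receptors of the low-density lipoprotein receptor family. Serpine2, or protease nexin-1, inhibits thrombin and both activators. Serpinf1, or pigment epithelium-derived factor, and Serpinh1, the collagen chaperone HSP47 of the endoplasmic reticulum, share the serpin fold without acting as protease inhibitors.

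Promoter windows of 5 of the 6 genes were matched by symbol in a RefSeq table of build GRCr8, each from 250 bases before to 50 after the start of the gene. Those of the urokinase gene and its receptor gene are shown because these genes differed between rats in the same directions. That of Serpinh1 is shown because its product, HSP47, is named as a heat shock protein. The windows are printed 5′ to 3′ on the strand of the gene, with matches to 4 motifs in capitals.
Plau, chr15:3511938-3512237, minus strand: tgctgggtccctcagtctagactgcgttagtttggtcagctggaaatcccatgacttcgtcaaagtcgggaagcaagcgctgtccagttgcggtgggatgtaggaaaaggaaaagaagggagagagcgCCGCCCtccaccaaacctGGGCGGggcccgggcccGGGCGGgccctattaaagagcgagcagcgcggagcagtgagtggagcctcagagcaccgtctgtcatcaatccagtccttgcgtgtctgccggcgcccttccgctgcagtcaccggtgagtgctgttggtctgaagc
Plaur, chr1:89181113-89181412, plus strand: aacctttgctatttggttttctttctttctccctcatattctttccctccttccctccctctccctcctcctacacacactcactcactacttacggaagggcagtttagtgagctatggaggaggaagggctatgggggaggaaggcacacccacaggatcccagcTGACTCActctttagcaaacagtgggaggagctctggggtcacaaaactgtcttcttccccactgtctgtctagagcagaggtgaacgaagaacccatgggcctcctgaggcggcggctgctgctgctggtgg
Serpinh1, chr1:163062927-163063226, minus strand: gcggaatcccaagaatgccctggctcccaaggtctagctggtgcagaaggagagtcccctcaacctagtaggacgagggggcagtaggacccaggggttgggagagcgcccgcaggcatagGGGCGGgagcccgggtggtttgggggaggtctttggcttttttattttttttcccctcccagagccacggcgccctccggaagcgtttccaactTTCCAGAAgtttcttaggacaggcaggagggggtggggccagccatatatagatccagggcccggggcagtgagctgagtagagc
The motifs, searched on both strands, were AP-1 (TGANTCA), the GC box (GGGCGG), the TATA box (TATAAA) and a heat shock element (TTCNNGAA), and no match overlapped one of another motif. The Plaur window held 1 AP-1 match, beginning 83 bases before the start, and 7.33% of 33469 RefSeq windows of the same length held this motif. The Plau window held 3 GC boxes, beginning 122, 104 and 87 bases before the start, and 33.1% of all windows held at least 1. The Serpinh1 window held 1 GC box and 1 heat shock element, the latter beginning 35 bases before the start, and 8.77% of all windows held the latter. The Serpine2 window held 6 GC boxes, some of them overlapping, and that of Serpinf1 held 0 matches to the 4 motifs. TATA boxes of exactly these letters were in 14.2% of all windows and in 0 of these 5. A match describes the letters and does not show that a factor binds there.

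Array medians lay between 8.12 and 8.22 log2 signal, and precision is limited by the small number of arrays. All 12 stromal marker genes listed passed the filter on signal described below. Of 15 macrophage and monocyte genes on the array 10 passed it, while Csf1r, Itgam, Ptprc, C1qa and C1qc did not, and of 9 endothelial genes 1 passed. The summed linear signal of the 15 macrophage genes was 17326, 12514 and 17159 in blood cultures of rats S4, S5 and S6. It was 8440, 12678 and 17949 in their marrow cultures. The 10 measured macrophage genes had a median difference of 0.37 log2 units, 0 passed the test between groups described below, and 1 had an unadjusted p under 0.05. Of 9 smooth muscle and pericyte genes on the array 4 were measured, and of 3 platelet genes 1. None of these or the endothelial gene passed in limma, and 3, 1 and 0 of them had an unadjusted p under 0.05. Of all 8135 tested probe sets 14.1% had such a p. Within each rat the blood array was washed in a fluidics module next to that of the marrow array, and rats S4 and S5 shared station 1 while S6 was on station 2, so the rat term of the fit also takes up the station. Blood arrays were on modules 1 and 3 and marrow arrays on modules 2 and 4, so module and group cannot be told apart.

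Blood and marrow cultures were compared to ask how stromal cells that grow out of circulating blood differ from those of the marrow of the same animal. None of the 6 genes passed the test over all probe sets. Plat came nearest, with a signal 2.39 times as high in blood as in marrow cultures (95% interval 1.61 to 3.54). Plau and Plaur had lower signals in blood cultures of rats S4 and S6 and higher ones in that of rat S5. For Serpine2, Serpinf1 and Serpinh1, the 95% interval of the difference on the brightest probe set included 0.

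Tests used limma with the rat as a term and Benjamini-Hochberg adjustment over the 8135 probe sets whose signal was above the table's median, 8.18, on at least 3 of 6 arrays. Of the 9 probe sets, 5 passed this filter, 1 for each gene except Plaur. An adjusted p under 0.05 was reached by 0 of these 5, where 2.15% of all tested probe sets reached it. At an unadjusted p under 0.05 the count was 1 of 5, against 14.1% of all tested probe sets. The 4 probe sets below the filter are given from a fit without a filter over 15866 probe sets, of which 0.517% passed, and 0 of the 9 passed in that fit. Because no background level is known for these arrays, differences on the dimmer probe sets are approximate.

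**Figure D1:**
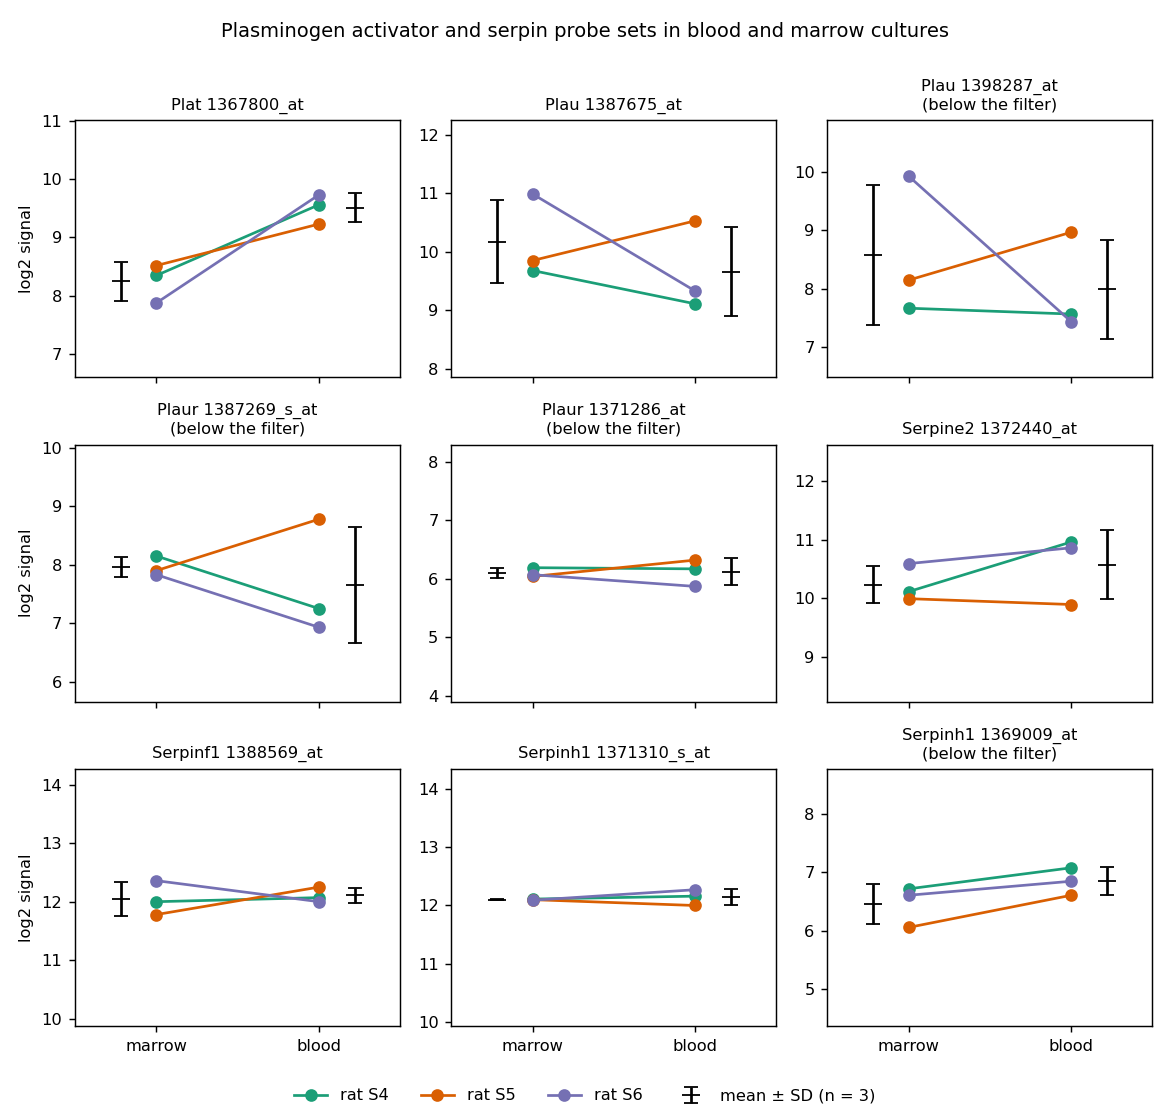
Log2 signal (vertical axes, each spanning the same range of log2 units) of the 9 probe sets in marrow and blood cultures, with a line for each rat and the mean ± SD of 3 arrays beside each group. Every line of Plat ends higher in blood, while the lines of Plau and of the brighter Plaur probe set go up in rat S5 and down in rats S4 and S6.

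The activators were measured by 3 probe sets. Plat (1367800_at) stood at 9.56, 9.23 and 9.73 log2 signal in blood cultures of rats S4, S5 and S6 and at 8.35, 8.52 and 7.88 in their marrow cultures. All 3 blood values lay above all 3 marrow values, as was true of 7.07% of tested probe sets, and the narrowest gap within a rat was in S5. The mean difference was 1.26 ± 0.23 log2 units (blood minus marrow ± SE, 95% interval 0.69 to 1.82), from 9.51 ± 0.25 in blood and 8.25 ± 0.33 in marrow cultures (SD, n = 3). Its adjusted p in limma was 0.0671, above the threshold. Without the rat as a term the same difference had an adjusted p of 0.0459. Without rat S5 it was 1.53 ± 0.21 with an adjusted p of 0.0099, in a fit where 406 probe sets passed against 175 in the main fit. Plat passed in no other alternative, with an adjusted p of 0.167 without a filter and 0.0949 to 0.115 under the 3 scalings. Over all alternatives the adjusted p ran from 0.0099 to 0.508, so the call depends on the rats and on the term. By difference within rats, Plat was higher by 1.21, 0.71 and 1.85 log2 units in S4, S5 and S6.

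Urokinase was measured by a probe set that passed the filter and by a dimmer one. The brighter Plau probe set (1387675_at) stood at 9.11, 10.53 and 9.33 log2 signal in blood cultures of S4, S5 and S6 and at 9.68, 9.85 and 10.99 in marrow cultures. Blood was thus above marrow in S5 and below it in S4 and S6, and the groups overlapped. The mean difference was -0.52 ± 0.42 log2 units (95% interval -1.56 to 0.53, adjusted p in limma 0.712). The marrow culture of rat S6 was the highest of the 6, and without that rat the mean difference was 0.05 ± 0.34. The dimmer probe set (1398287_at) had the same order within rats, with blood minus marrow differences of -0.10, 0.82 and -2.49 log2 units in S4, S5 and S6. Over the 6 arrays the 2 Plau probe sets correlated at a Pearson r of 0.97, given as a description of arrays that share 3 rats. On the dimmer one the mean difference was -0.59 ± 0.64 (95% interval -2.25 to 1.07, adjusted p 0.852 in limma without a filter), and it was 0.36 ± 0.30 without rat S6. Plat and Plau, whose products act on the same substrate, had mean differences of opposite sign, and their values over the 6 arrays correlated at -0.66. In rat S5, however, both were higher in blood, by 0.71 and 0.68 log2 units. The sign for Plau is not settled, since both its intervals included 0.

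The urokinase receptor gene was below the filter on both its probe sets. The brighter one (1387269_s_at) stood at 7.25, 8.78 and 6.93 log2 signal in blood cultures of S4, S5 and S6 and at 8.15, 7.90 and 7.83 in marrow cultures. The 3 marrow values lay close together, while in blood S5 was the highest of all 6 values and S4 and S6 the lowest. Its SD was 0.99 over blood and 0.17 over marrow cultures, and within rats blood differed from marrow by -0.90, 0.88 and -0.90 log2 units. The mean of -0.31 ± 0.40 had a 95% interval of -1.34 to 0.72 (adjusted p 0.883 in limma without a filter). Without rat S5 the mean difference was -0.90 ± 0.18 with an adjusted p of 0.163, and without either other rat it was -0.01. The second Plaur probe set (1371286_at) lay between 5.87 and 6.32 on all 6 arrays and differed by 0.02 ± 0.15, with -0.02, 0.28 and -0.20 in S4, S5 and S6. The suffix _s_at marks a probe set whose oligonucleotides match more than 1 transcript sequence, and that of the brighter Serpinh1 probe set is of the same kind.

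A blood culture of rat S5 that went the other way from those of S4 and S6 was thus seen on all 4 Plau and Plaur probe sets. On the dimmer probe set of each gene, however, the S4 difference was only -0.10 log2 units for Plau and -0.02 for Plaur. The same split with the opposite direction was seen on Serpine2 and on the brighter Serpinh1 probe set, although there the S5 difference was only -0.10 log2 units for both. In all, S5 had the other sign on 6 of 9 probe sets, where 20.3% of the 15866 probe sets without a filter had such a split. The 4 with S5 higher and the others lower compare with 6.80% of those probe sets, but they stand for 2 genes only. Each of these counts takes the sign of a difference whatever its size. Rat S5 was singled out from these same values, so the counts and shares are a description only. With 1 culture of each kind per rat, a difference between rats could not be tested and cannot be told apart from a difference between cultures. Stromal markers also differed between the blood cultures. Pdgfra, a growth factor receptor of stromal cells, stood at 8.91, 10.84 and 9.65 log2 signal in blood cultures of S4, S5 and S6, against 11.35 to 11.94 in marrow cultures (difference -1.93 ± 0.35, adjusted p in limma 0.0681). The summed linear signal of all 12 stromal markers was 37549, 48719 and 39622 in these blood cultures and 41688 to 48095 in marrow cultures, and of the 12 differences 7 were above 0 and 5 below it, with a median of 0.01 log2 units. The 1 marker that passed, Eng, a co-receptor for TGF-beta, rose by 1.62 ± 0.23 (adjusted p in limma 0.038), with 10.52, 10.27 and 10.72 log2 signal in blood cultures of S4, S5 and S6 and 8.25, 9.16 and 9.25 in marrow cultures. Nt5e differed by 0.77 ± 0.15 (adjusted p 0.0862), so the direction of Pdgfra does not stand for the list. Like Pdgfra, the brightest probe sets of Thy1, Dcn and Lum were highest in S5 among the blood cultures, and none passed. In blood cultures of S4, S5 and S6, Thy1 stood at 7.02, 9.42 and 7.41 and Dcn at 10.55, 12.89 and 10.44. Lum stood at 8.11, 11.92 and 9.79 there. Eng, Col1a1, Col1a2 and Vim were lowest in S5, and the remaining markers had S5 between S4 and S6. The macrophage sum of the blood cultures was lowest in S5, at 12514. The part of either in the Plau and Plaur values was not tested. In bulk RNA, fewer cells of a type and less RNA per cell cannot be told apart.

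**Figure D2:**
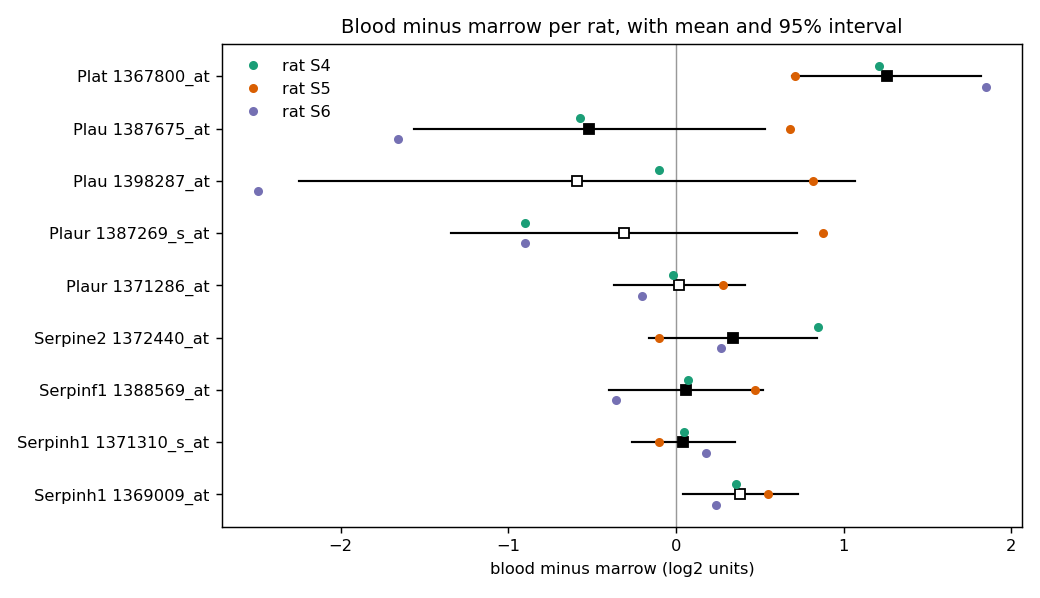
Blood minus marrow difference in log2 units (horizontal axis) for each probe set, with coloured points for the 3 rats, a square for the mean and a line for its 95% interval from limma; open squares are probe sets below the filter. Only the interval of Plat and that of the dimmer Serpinh1 probe set leave out 0. On Plau and Plaur rat S5 lies above 0 and rats S4 and S6 below it, and on the dimmer Plau probe set S6 lies farthest from the others.

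Serpine2 was the only protease inhibitor among the 6 genes. Its probe set (1372440_at) stood at 10.96, 9.89 and 10.86 log2 signal in blood cultures of S4, S5 and S6 and at 10.11, 9.99 and 10.59 in marrow cultures. Blood was above marrow in S4 and S6 and slightly below it in S5, where both values were the lowest of their groups. The mean difference was 0.34 ± 0.20 log2 units (95% interval -0.16 to 0.84, adjusted p in limma 0.562), or 1.27-fold with an interval of 0.895 to 1.79. Most of it came from rat S4, at 0.85 log2 units, and without that rat the mean difference was 0.08 ± 0.15. Across the 6 arrays Serpine2 and the brighter Plaur probe set correlated at -0.88, and Serpine2 and the dimmer one at -0.52. The brighter Plaur probe set correlated at -0.94 with the brighter one of Serpinh1, so the inverse course was not particular to Serpine2.

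Serpinf1 and Serpinh1 differed little between the groups. Serpinf1 (1388569_at), whose product is known to inhibit the growth of blood vessels, stood at 12.07, 12.25 and 12 log2 signal in blood cultures of S4, S5 and S6 and at 12, 11.78 and 12.36 in marrow cultures. The groups overlapped and no 2 rats gave a like difference, at 0.07, 0.47 and -0.36 log2 units. Its mean difference of 0.06 ± 0.18 had a 95% interval of -0.40 to 0.52 (adjusted p in limma 0.944), which bounds the ratio of blood to marrow between 0.76 and 1.43. The brighter Serpinh1 probe set (1371310_s_at) stood at 12.16, 12 and 12.27 log2 signal in blood cultures and at 12.11, 12.10 and 12.09 in marrow cultures. The SD over marrow cultures was 0.01, and the difference of 0.04 ± 0.12 had a 95% interval of -0.26 to 0.35 (adjusted p in limma 0.94), or a ratio between 0.832 and 1.28. A second Serpinh1 probe set (1369009_at), below the filter, stood at 7.08, 6.61 and 6.85 in blood and at 6.72, 6.06 and 6.61 in marrow cultures. Blood was above marrow in each rat there, by 0.36, 0.55 and 0.24 log2 units, although the groups overlapped. The mean of 0.38 ± 0.13 (95% interval 0.04 to 0.73) had an adjusted p of 0.401 in limma without a filter, so the 2 Serpinh1 probe sets gave unlike differences and neither passed.

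**Figure D3:**
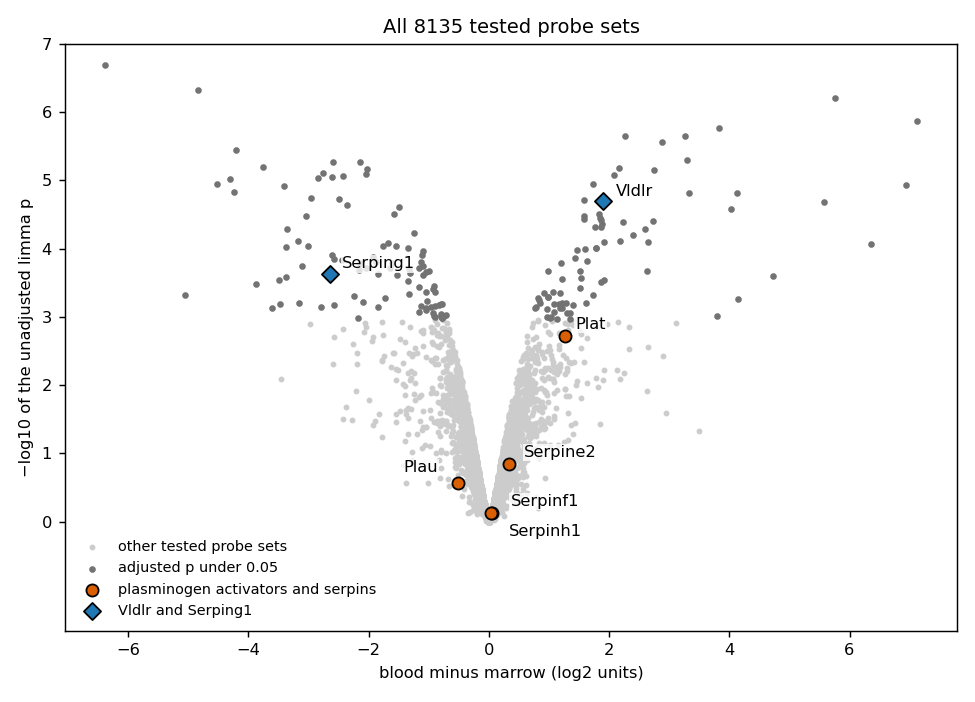
Blood minus marrow difference in log2 units (horizontal axis) against −log10 of the unadjusted limma p (vertical axis) for the 8135 tested probe sets, with darker grey where the adjusted p was under 0.05. Plat lies just below the called probe sets, Plau, Serpine2, Serpinf1 and Serpinh1 lie among the uncalled ones, and Vldlr and Serping1 lie among the called ones.

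Among partners of the plasminogen system 1 gene rose, 0 fell and 14 did not pass, of 15 measured and 23 on the array. Each gene was represented by its brightest probe set that passed the filter, and over all 6110 such genes 0.867% were called higher and 1.16% lower. The median difference of the 15 was 0.07 log2 units, against -0.01 over all measured genes. The gene that rose was Vldlr, the very low-density lipoprotein receptor, which takes up complexes of plasminogen activators with serpins. Its brightest probe set (1389611_at) stood at 11.86, 10.91 and 11.92 log2 signal in blood cultures of S4, S5 and S6 and at 10.01, 9.24 and 9.75 in marrow cultures. All blood values were above all marrow values, and in both groups S5 was the lowest. The difference was 1.90 ± 0.14 log2 units, or 3.72-fold with a 95% interval of 2.91 to 4.77 (adjusted p in limma 0.00479). The other 2 Vldlr probe sets gave 1.87 ± 0.16 and 1.85 ± 0.16, and both passed. Without rat S4, where 0 of all 8135 tested probe sets passed, the adjusted p of the brightest was 0.21. Without rat S6 it was 0.0525, and the differences were 1.92 and 1.76 log2 units. Over all alternatives its adjusted p ran from 0.00188 to 0.21.

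None of the other measured endocytic receptors of this list passed. Lrp1, the related receptor that clears the same complexes, differed by -0.20 ± 0.15 log2 units, and its chaperone gene Lrpap1 by 0.13 ± 0.18. Igf2r, which binds the urokinase receptor and mannose 6-phosphate, differed by 0.42 ± 0.14 (adjusted p in limma 0.255), with all blood values above all marrow values. The plasminogen binding partners Anxa2 and S100a10 differed by 0.09 ± 0.12 and 0.11 ± 0.24 log2 units. Itga3, an integrin subunit, differed by 0.91 ± 0.35 (adjusted p 0.333) and Tnfaip6, a hyaluronan-binding protein that raises the inhibition of plasmin, by -1.55 ± 0.52 (adjusted p 0.264). The substrate gene Plg was below the filter, at 6.99 to 7.20 on the 6 arrays.

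Of the other serpins 25 genes were on the array and 6 were measured, of which 0 rose, 1 fell and 5 did not pass. Their median difference was 0.08 log2 units. Serping1, the inhibitor of complement C1 and plasma kallikrein, was the one that fell. It stood at 8.58, 10.12 and 9.42 log2 signal in blood cultures of S4, S5 and S6 and at 12.15, 11.99 and 11.93 in marrow cultures. The marrow values lay close together and all were above the blood values. The difference was -2.65 ± 0.32 log2 units (95% interval -3.44 to -1.86, adjusted p in limma 0.0198), or 6.28-fold lower in blood. Without rat S4, where 0 of all 8135 tested probe sets passed, it was -2.19 ± 0.21 with an adjusted p of 0.231. Without rat S6 it was -2.72 ± 0.44 with an adjusted p of 0.125. It also missed the threshold with arrays scaled to a common trimmed mean (0.0641), to a common median (0.0534) or by quantiles (0.0683), and without a filter (0.0743), and over all alternatives the adjusted p ran from 0.00159 to 0.231.

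Serpinb9, an inhibitor of granzyme B, differed by 0.59 ± 0.12 log2 units (adjusted p 0.0992) and Serpinb6a by 0.66 ± 0.20 (adjusted p 0.219), both with higher blood than marrow values in each rat. Serpina3n differed by -1.77 ± 0.74 (adjusted p 0.379). Serpinb2, or plasminogen activator inhibitor 2, lay below the filter and is named because its values were large once seen. Its signal was 8.75, 7.22 and 7.38 log2 signal in blood cultures of S4, S5 and S6 and at 5.36, 4.68 and 2.81 in marrow cultures. The blood values were all above the marrow values, but only that of S4 was above the table's median. The difference of 3.50 ± 0.40 log2 units (95% interval 2.48 to 4.52) had an adjusted p of 0.0581 in limma without a filter, and 0.0296 to 0.517 over the alternatives. Serpinf2, the plasmin inhibitor, lay between 7.09 and 7.33 on all 6 arrays.

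**Figure D4:**
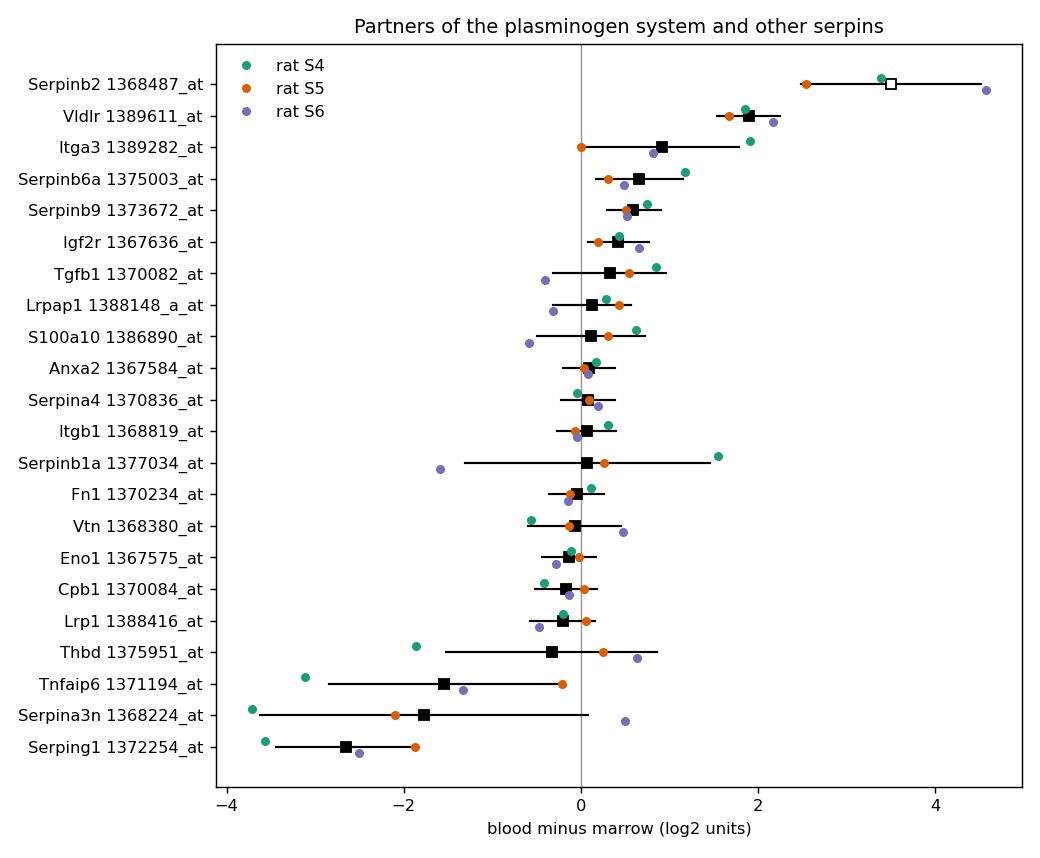
Blood minus marrow difference in log2 units (horizontal axis) for the measured partners of the plasminogen system and the measured other serpins, with Serpinb2 added as an open square because it lay below the filter. Points are the 3 rats, squares the means and lines the 95% intervals; Vldlr at 1.90 and Serping1 at -2.65 are the called genes.

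Among coagulation and thrombin genes 18 were on the array and 6 were measured, of which 0 passed in limma and 1 had an unadjusted p under 0.05. Of all tested probe sets 14.1% had such a p. The median difference was -0.30 log2 units. F3, or tissue factor, which starts coagulation, differed by -0.42 ± 0.17 (adjusted p 0.355) and F2r, the thrombin receptor, by -0.25 ± 0.14. Tfpi2, a Kunitz inhibitor of plasmin and other proteases, stood at 4.88, 9.15 and 5.11 log2 signal in blood cultures of S4, S5 and S6 and at 9.48, 9.12 and 7.39 in marrow cultures. As with Plaur, the blood culture of S5 stood above the other blood cultures, and the mean difference of -2.28 ± 0.81 did not pass (adjusted p 0.293).

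Partners of Serpinh1 in the folding and secretion of collagen were measured for 25 of the 26 genes on the array. Of these 0 passed in limma while 5 had an unadjusted p under 0.05. Such a p was reached by 14.1% of all tested probe sets, a share that also stands beside the counts of the lists named next. The median difference of the 25 genes was 0.06 log2 units, with 17 above 0 and 8 below it. P4ha1, a subunit of the prolyl hydroxylase of collagen, differed by 0.45 ± 0.13 (adjusted p 0.202) and Col1a1, the main fibrillar collagen chain, by 0.47 ± 0.13 (adjusted p 0.188). Col5a1, a chain of the fibril-forming collagen V, had the largest difference of the list by brightest probe sets, at 0.71 ± 0.24 (adjusted p 0.269). The dimmer Col1a1 probe set also gave 0.71, with an SE of 0.15 (adjusted p 0.099), and the dimmer one of Col5a1 gave 0.57 ± 0.29. Colgalt1, a collagen galactosyltransferase, differed by -0.34 ± 0.13 (adjusted p 0.319). Of 12 measured heat shock genes 0 passed and 3 had an unadjusted p under 0.05, with a median difference of 0.16. The small heat shock gene Cryab differed by 2.90 ± 0.61 (adjusted p 0.102) and the chaperone gene Hsph1 by 0.70 ± 0.18 (adjusted p 0.162). Of 10 measured genes for angiogenesis and PEDF receptors 0 passed and 2 had an unadjusted p under 0.05, Lrp6 at -0.93 ± 0.18 (adjusted p 0.081) and Vegfd at -0.54 ± 0.16 (adjusted p 0.209).

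The genes most like each member over the 6 arrays were taken by Pearson r among the brightest filtered probe sets of about 6094 other genes. With so few arrays high values are common: 31 genes reached 0.95 for Plat, 138 for Serpine2, 12 for Plaur, 13 for Serpinh1, 8 for Serpinf1 and 2 for Plau. For Plat they were Parvb, Flna and Ext1, at 1.00, 0.99 and 0.98, which differed by 0.46 ± 0.14, 0.51 ± 0.14 and 0.93 ± 0.21 log2 units between blood and marrow. For Plau they were Alg2, Tmem86a and Slc39a13, at 0.99, 0.97 and 0.95. For Plaur they were Camkv, Nfkb1 and P4ha2, at 0.99, 0.99 and 0.98, of which P4ha2 stood at 11.06, 12.15 and 10.79 log2 signal in blood cultures of S4, S5 and S6 and at 11.26 to 11.78 in marrow cultures. Serpine2 was followed most closely by Pgpep1, Rnf169 and Ilk, each at 1.00, although these differed by no more than 0.16 log2 units between the groups. Serpinf1 was followed by C4h2orf42, Prdm2 and Irf2bp2, each at 0.97, and Serpinh1 by Abcc3, Src and Foxp4, at 1.00, 1.00 and 0.98. These values describe 6 arrays of 3 rats and carry no test.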

How the data were processed

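The deposited value table holds 1 value per probe set and array, taken to be log2 signal because the values run from 0 to 13.31. No source used here states the base, and folds depend on it. Per the submitters' processing notes the authors used GCOS, the array maker's software. For background correction, probe summary and normalization, no method was given in the sources used here. Instrument files, deposited with other settings of each array, were read only for stations and modules. The deposited log2 values were not transformed (pseudocount 0), and 86 empty cells were left empty and 94 were exactly 0. Of 15923 probe sets, 57 controls were removed, and 12789 carried 1 gene symbol in the platform annotation, 312 several and 2822 none. Probe sets with signal above 8.18 on at least 3 arrays were tested.

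Differences were tested two-sided by lmFit and eBayes of limma 3.58.1 (R 4.3.3). The rat was a fixed term, since the design text pairs cultures by animal. As a check, the residuals about the group mean correlated between the blood and marrow arrays of a rat at -0.29, 0.30 and 0.33. Between blood and marrow arrays of different rats they ran from -0.47 to 0.42, a range that takes in the values within rats. The fit was tested on simulated data, where it recovered 52.5% of differences of 1 log2 unit and 86% of those of 2. Of its calls there 3.14% were false. A difference of 1 log2 unit can thus be missed. The members and lists were chosen with earlier results of these data known, so they are no independent evidence. The genes named in each list are those past an adjusted p of 0.05 and up to 4 with the smallest p, with a few others named for their role, and for each member the 3 genes of highest r. The brightest probe set of a gene is the one whose 6 log2 values have the highest mean. Alternatives were no filter, no rat term, each rat left out, 3 scalings and cells of 0 as missing. Promoter sequences come from RefSeq, build GRCr8, and figures were made with Python 3.11.15 and matplotlib 3.10.9.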

Additional observations from a re-analysis of the deposited data

How the results depend on the processing

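With no filter 82 of all probe sets passed, against 175 in the fit as reported, with a common trimmed mean 109 and with quantile normalization 108, while leaving out 1 rat gave 0 to 406, the 0 without rat S4 and the 406 without rat S5. The fit without the replicate block moved only 1 call among the 9 probe sets of the 6 genes, that of Plat, whose difference of 1.26 then passed at an adjusted p of 0.0459. Over the 6 alternatives that keep all rats, no difference of these probe sets changed sign. Leaving out 1 rat, which leaves 1 residual degree of freedom, gave 0.96 to 1.53 for Plat, passing without rat S5. It changed the sign on 5 probe sets, with ranges of -1.11 to 0.05 and -1.29 to 0.36 for Plau, -0.11 to 0.13 for the dimmer Plaur probe set, -0.15 to 0.27 for Serpinf1 and -0.03 to 0.12 for the brighter Serpinh1 probe set. The cause of these changes was not tested. Low signal limits the 4 probe sets below the filter, where no background level is known.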
